A study of Mus musculus with 12 samples.

Results

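Alas2, Hbb-b1 and Hba-a2 are 3 genes of red blood cell precursors, and their signals were followed in the brain RNA of these mice. They were taken as the genes with these symbols in the probe table of the array, among 6427 genes with values. The table lists 4 probes under 1 of these genes alone, and 3 of them had values, 1 for each gene. All 3 had values in all 12 samples. The second Alas2 probe had none.

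The samples were brains of mice at postnatal day 10, titled C57Bl/6j, of 3 genotypes with 4 samples each. Wildtype mice carried both copies of Gja9, Gja9_null mice (Gja9 (-/-)) carried none, and Gja9_het mice (Gja9 (+/-)) carried a single copy. Gja9 in the titles is the gene now called Gjd2, which encodes connexin36, the gap junction protein of neuronal electrical synapses. The labels do not say how the allele was made. Brains were taken after decapitation and frozen, and the protocol text does not mention perfusion, so blood in the vessels may have been part of the tissue. The spotted mouse cDNA arrays carried 2 extracts of the same genotype in opposite dyes, so the 12 samples lay on 6 arrays, 2 for each genotype. Samples 1 and 2 of a genotype are called its array 1 here and samples 3 and 4 its array 2.

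Haem is built in a chain of enzymes that starts in the mitochondrion. Alas2 is the erythroid form of the enzyme of the first step and is carried on the X chromosome, while Alas1 serves all other tissues. Alpha globins such as Hba-a2 and beta globins such as Hbb-b1 join with haem to form haemoglobin. Young red cells released from the marrow still hold globin and Alas2 messenger RNA, and neurons have also been described to make some globin. In bulk tissue, fewer cells of a type and less RNA per cell cannot be told apart. Hba-a1 and Hba-a2 are nearly identical in sequence. Mice of the C57BL/6 strain carry the beta globin genes Hbb-bs and Hbb-bt at the place of Hbb-b1 and Hbb-b2 of other strains, so a probe named for Hbb-b1 or Hba-a2 may also bind the messages of these copies, and their shares cannot be told apart here.

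The stretches upstream of the transcription start are shown for Alas2 and Hba-a2 as a description. Erythroid genes are commonly bound by GATA1 at GATA boxes and by Klf1 at CACCC boxes. The RefSeq promoter table held an entry for 2 of the 3 genes. Each line gives the 250 bases before the annotated start on the + strand of GRCm38.p6, at chrX:150547167-150547416 for Alas2 and at chr11:32296242-32296491 for Hba-a2, with matches to 4 motifs in capitals.
Alas2: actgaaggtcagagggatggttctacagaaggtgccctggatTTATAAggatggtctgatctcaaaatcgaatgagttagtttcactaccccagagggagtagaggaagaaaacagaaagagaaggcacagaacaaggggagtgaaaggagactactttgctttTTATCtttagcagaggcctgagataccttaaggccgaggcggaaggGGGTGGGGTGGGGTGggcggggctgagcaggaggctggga
Hba-a2: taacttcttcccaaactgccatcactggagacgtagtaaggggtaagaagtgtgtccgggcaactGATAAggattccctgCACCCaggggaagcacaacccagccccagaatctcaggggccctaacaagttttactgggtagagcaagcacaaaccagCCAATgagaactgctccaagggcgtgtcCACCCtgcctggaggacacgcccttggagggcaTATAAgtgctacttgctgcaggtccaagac
The motifs were searched on both strands. The GATA box was read as GATAA and the Klf1-type box as CACCC. The promoter boxes bound by NF-Y and by the TATA-binding protein were read as CCAAT and, for the latter, as TATAA. Alas2 held GATAA on the other strand at 86 to 82 bases before the start and 3 adjoining copies of CACCC on the other strand between 40 and 26 bases before it. Its TATAA matches lay far upstream, at 208 to 203 bases, where the 2 strands overlap. Hba-a2 held GATAA at 185 to 181 bases, CACCC at 170 to 166 and at 63 to 59 bases, CCAAT at 91 to 87 bases and TATAA at 30 to 26 bases before the start. Of 32851 promoters of this length in the table, 22.6% held the first of these motifs, 52% the CACCC box, 33.8% the NF-Y box and 22.8% the TATA box on either strand, so each match is common and is given as a description.

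Values are the log2 signal relative to the mean signal of the same sample, so 0 is the mean of all probes of that sample. The median probe lay lower, between -0.98 and -0.81 over the 12 samples. The samples of an array were nearly alike, with a correlation across probes between 0.986 and 0.991, against 0.865 to 0.922 between arrays of the same genotype and 0.807 to 0.922 between genotypes. The probe table lists 0 probes for Gja9 or Gjd2, so the loss of the gene could not be read out. Brain markers were present, with the summed signal of 5 measured neuron markers (of 10 listed) between 13.9 and 24.7 times the mean probe over the 12 samples. The arrays, 2 per genotype, limit the precision of every comparison, and p-values measure only the spread between these samples, since the labels number them as replicas without saying that each is a separate mouse.

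Alas2 had its lowest signal in the Gja9_null samples. In wildtype its log2 signal was -0.75, -0.59, -0.28 and -0.19 in samples 1 to 4. In Gja9_het it was -0.24, -0.20, -0.18 and -0.18. In Gja9_null it was -2.30 and -2.44 on array 1 and -1.48 and -1.41 on array 2. All 4 Gja9_null samples lay below all samples of the other genotypes, and the wildtype and Gja9_het samples overlapped. This separation is not rare in these data, since 15.6% of all 9514 features had every Gja9_null sample below every wildtype sample and 7.52% above, and 22.5% had them below every Gja9_het sample. Between Gja9_het and wildtype 6.09% of features lay wholly below and 8.67% wholly above.

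The mean of Alas2 was -0.46 ± 0.26 in wildtype, -0.20 ± 0.03 in Gja9_het and -1.91 ± 0.54 in Gja9_null (SD, n = 4 samples on 2 arrays each). On the linear scale these means correspond to 0.729, 0.869 and 0.266 times the mean probe. The 2 Gja9_null arrays themselves lay apart. The order of the levels was Gja9_het, wildtype, Gja9_null, and the first pair did not differ beyond its spread.

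**Figure D1:**
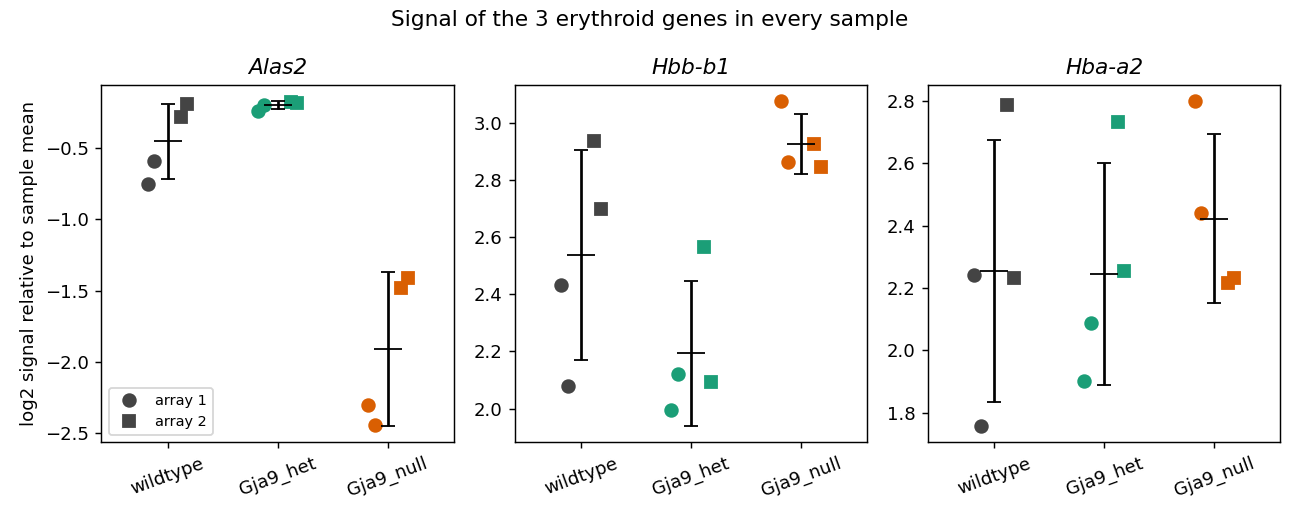
Log2 signal relative to the sample mean of Alas2, Hbb-b1 and Hba-a2 in each of the 12 samples by genotype, with circles for array 1, squares for array 2 and black bars for the mean ± SD of 4 samples; the vertical scale differs between the genes. Alas2 lies between -2.44 and -1.41 in Gja9_null and between -0.75 and -0.18 in the other genotypes, while Hba-a2 overlaps among all 3.

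In limma with the array as a random block, Alas2 differed between Gja9_null and wildtype by -1.45 ± 0.34 log2 units (SE), a 2.74-fold lower signal, with a 95% interval from -2.18 to -0.73. The Benjamini-Hochberg adjusted p over all features was 0.107, so it did not pass at 0.05, where 0.326% of features did (0.21% lower and 0.116% higher). Against Gja9_het the limma difference was -1.71 ± 0.34 (interval -2.43 to -0.98, adjusted p = 0.0576), where 0.273% of features passed (0.263% lower and 0.0105% higher). Alas2 ranked 62nd of 9514 features by p in the former and 28th in the latter comparison. Both comparisons use the same Gja9_null arrays. Between Gja9_het and wildtype the difference was 0.25 ± 0.34 (interval -0.48 to 0.98, limma adjusted p = 1), where 0% of features passed. An exact permutation test over array means, with 2 arrays against 2, gave a two-sided p of 0.333 for each of the 3 comparisons, which is the smallest this design allows.

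The probes numbered near Alas2 had a similar difference; how probe numbers map to places on the slide is not known here. Alas2 has probe number 27975 of 28704, in the 47th of 48 equal stretches of probe numbers. Within 50 numbers on either side lay 60 other probes with values, and all 60 were lower in Gja9_null than in wildtype. Their median difference was -1.23, with quartiles of -1.63 and -0.96, against -0.08 over all probes. Of these 60 probes, 24 had a lower difference than Alas2. Against Gja9_het all 60 were lower as well, with a median of -1.43, and 18 were lower than Alas2. Between Gja9_het and wildtype their median was 0.07.

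Array by array, Alas2 followed these neighbours. On array 1 of Gja9_null it deviated by -1.51 from the mean of the 6 arrays and its neighbours by a median of -1.18. On array 2 of Gja9_null the deviations were -0.59 for Alas2 and -0.55 for the neighbours. On array 1 of Gja9_het they were 0.63 and 0.47, and on array 2 0.67 and 0.47. On the wildtype arrays Alas2 deviated by 0.18 and 0.62 and its neighbours by 0.19 and 0.56.

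**Figure D2:**
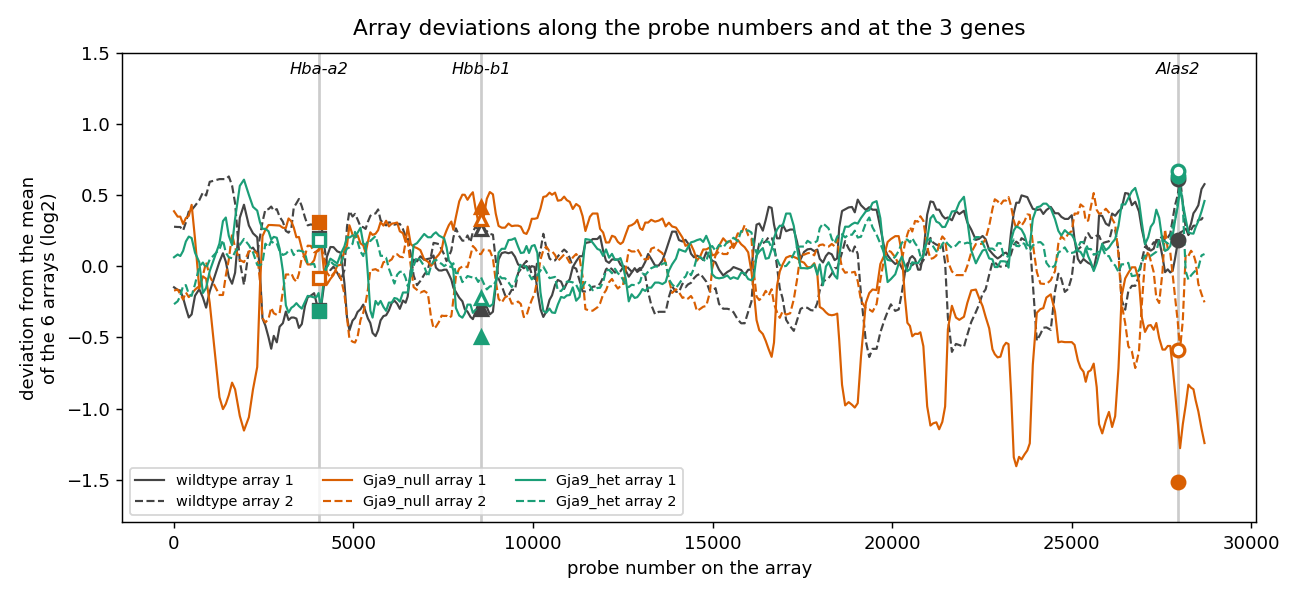
Deviation of each array from the mean of the 6 arrays (log2) along the probe numbers, as a running median over probes with values (lines, solid for array 1 and dashed for array 2), with the deviations of Hba-a2 (squares), Hbb-b1 (triangles) and Alas2 (circles) as points, filled for array 1 and open for array 2. At Alas2 the array 1 and array 2 points of Gja9_null stand at -1.51 and -0.59, where the lines of those arrays also dip.

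With each sample centred on the median deviation of the probes within 50 numbers, Alas2 stood at -0.20 ± 0.18 between Gja9_null and wildtype (limma adjusted p = 0.635), at -0.35 ± 0.18 between Gja9_null and Gja9_het (adjusted p = 0.284) and at 0.15 ± 0.18 between Gja9_het and wildtype. The array means were then -0.87 and -0.82 in wildtype, -0.69 and -0.70 in Gja9_het and -1.16 and -0.92 in Gja9_null. The Gja9_null samples then overlapped with wildtype, since wildtype sample 1 (-0.94) lay below Gja9_null samples 3 (-0.92) and 4 (-0.93). They lay below all Gja9_het samples, but the share of all features that did so after local centring was not counted. Before local centring that share was 22.5%. Without array 1 of Gja9_null, and without local centring, Alas2 differed from wildtype by -0.99 ± 0.29 (limma adjusted p = 0.238). Between Gja9_null and Gja9_het, 4 of 28 alternatives brought Alas2 past the threshold, and against wildtype 1 did.

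Hbb-b1, the beta globin, had no difference that passed. Its log2 signal was 2.43, 2.08, 2.94 and 2.70 in the wildtype samples. It was 3.08, 2.86, 2.93 and 2.84 in Gja9_null and 1.997, 2.12, 2.57 and 2.09 in Gja9_het. The Gja9_null samples lay above all Gja9_het samples, as 10.2% of all features did, and overlapped with wildtype. The wildtype samples covered nearly the whole range of the other genotypes.

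The means of Hbb-b1 were 2.54 ± 0.37 in wildtype, 2.93 ± 0.10 in Gja9_null and 2.19 ± 0.25 in Gja9_het (SD, n = 4), or 5.80, 7.60 and 4.58 times the mean probe. The limma difference of Gja9_null from wildtype was 0.39 ± 0.41 (interval -0.49 to 1.27, adjusted p = 0.772) and that of Gja9_het -0.34 ± 0.41 (interval -1.22 to 0.53, adjusted p = 1). Gja9_null and Gja9_het differed by 0.73 ± 0.41 (interval -0.14 to 1.61, limma adjusted p = 0.417). After local centring these values were 0.17, -0.21 and 0.38. The 52 probes within 50 numbers of Hbb-b1 had median differences of 0.22, -0.19 and 0.27 in the same order.

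Hba-a2, the alpha globin, overlapped among all genotypes. Its log2 signal was 2.24, 1.76, 2.79 and 2.23 in wildtype. It was 2.80, 2.44, 2.22 and 2.23 in Gja9_null and 1.90, 2.09, 2.73 and 2.25 in Gja9_het. The highest and the lowest samples differed by about as much within wildtype as over all 12 samples.

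The means of Hba-a2 were 2.25 ± 0.42, 2.42 ± 0.27 and 2.24 ± 0.36 in wildtype, Gja9_null and Gja9_het (SD, n = 4). The limma differences were 0.17 ± 0.54 for Gja9_null against wildtype (interval -0.99 to 1.32, adjusted p = 0.944), -0.01 ± 0.54 for Gja9_het against wildtype (interval -1.17 to 1.15, adjusted p = 1) and 0.18 ± 0.54 for Gja9_null against Gja9_het (interval -0.98 to 1.33, adjusted p = 0.908). Local centring turned the sign of the last 2, to 0.18 and -0.17. On the linear scale the first interval spans ratios from 0.504 to 2.50, so differences of that size in either direction could not be told apart from none.

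**Figure D3:**
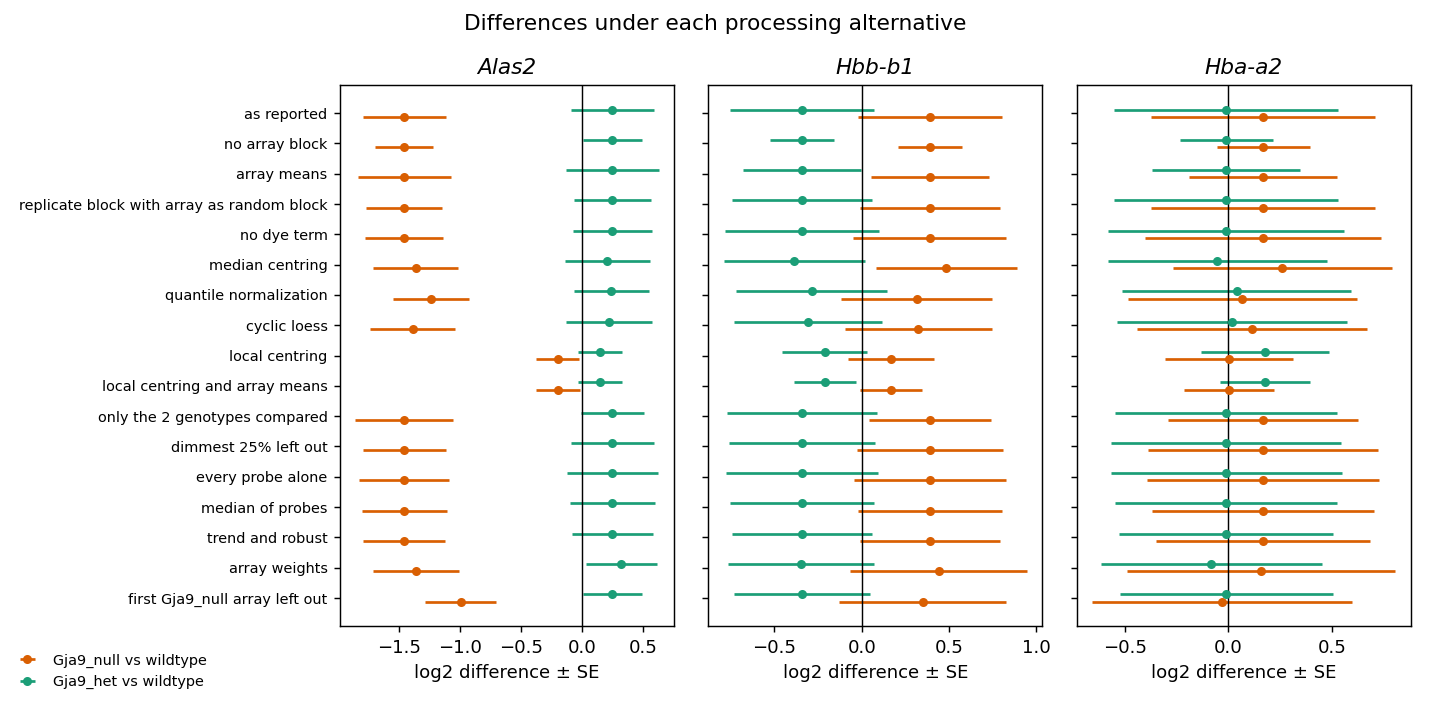
Log2 difference from wildtype (point) with its SE (bar) of Alas2, Hbb-b1 and Hba-a2 in Gja9_null and Gja9_het, as reported and under 16 processing alternatives. Alas2 in Gja9_null stands at -1.45 as reported and at -0.20 under local centring, while the bars of Hba-a2 cross 0 or reach it nearly throughout.

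Further probes listed under globin genes, called globin probes here, may give repeat readings of the same messages. What their clones hold was not given. The table lists 9 more probes with values under several genes, of which 8 carry Hba-a2, Hba-a1 and the histone gene H3f3a together and 1 carries Hbb-b2 and Hbb-b1. They name no single gene and were tested alone. With the probes of Hbb-b1 and Hba-a2 they make 11 globin probes from 6 clones, and 6 of them are spots of the same alpha globin clone at probe numbers 1256, 6040, 12800, 17584, 22368 and 27152. The embryonic globins Hba-x, Hbb-bh1 and Hbb-y have 1, 1 and 4 probes, none of which had values. When every probe was tested alone, 0 of the 11 passed in any of the 3 comparisons, and 0 had an unadjusted p under 0.05. The smallest limma adjusted p among them was 0.695 between Gja9_null and wildtype, 1 between Gja9_het and wildtype and 0.473 between Gja9_null and Gja9_het.

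The repeated alpha globin clone did not give the same genotype difference at its 6 spots. Between Gja9_null and wildtype the spots ranged from -0.78 to 0.57, with 4 of 6 above 0, and between Gja9_het and wildtype from -1.30 to 0.51, with 2 above 0. At probe number 27152, the nearest of them in number to Alas2, the difference of Gja9_null from wildtype was -0.78 ± 0.83, and at 17584 it was 0.57 ± 0.55. Over all 11 globin probes the median was 0.17, -0.34 and 0.31 for Gja9_null against wildtype, Gja9_het against wildtype and Gja9_null against Gja9_het, against -0.10, 0.03 and -0.17 over all features. The deviation of an array from the mean of the 6 arrays had an SD over the 6 spots of 0.449 on average, and of 0.348 after local centring.

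**Figure D4:**
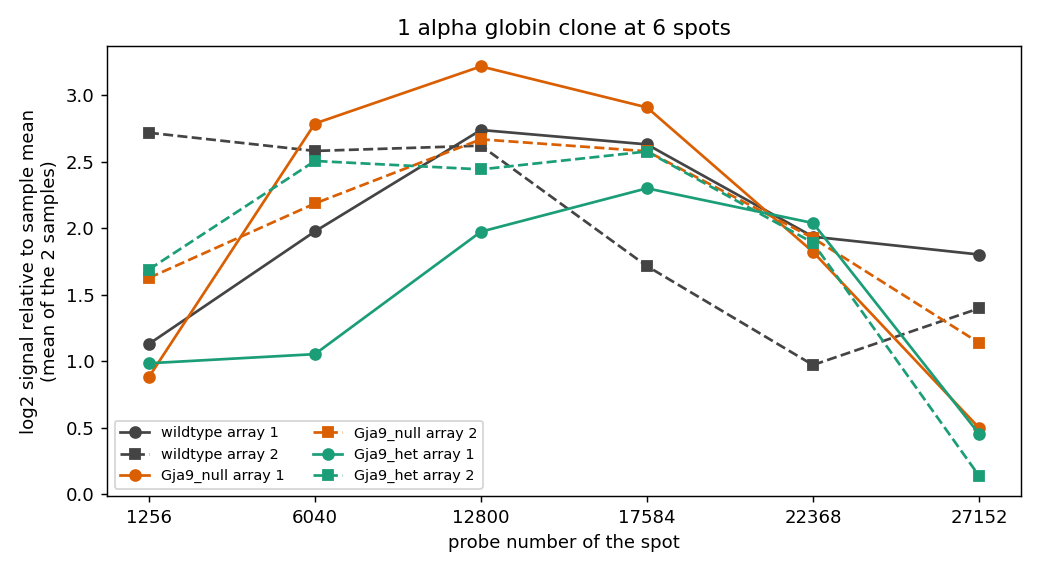
Log2 signal relative to the sample mean, averaged over the 2 samples of each array, of a single alpha globin clone at its 6 spots, labelled by probe number, with solid lines and circles for array 1 and dashed lines and squares for array 2 of each genotype. The order of the arrays changes from spot to spot, and the difference of Gja9_null from wildtype runs from -0.78 to 0.57.

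Within an array, where 2 samples of the same genotype were read at the same spot in different dyes, the globin probes moved together. On array 2 of wildtype, sample 3 (Cy5) exceeded sample 4 (Cy3) at 11 of 11 globin probes, by a median of 0.45 log2 units (0.24 to 0.55). On array 2 of Gja9_het, sample 3 exceeded sample 4 at 11 of 11 probes, by a median of 0.39. On array 1 of Gja9_null, sample 1 exceeded sample 2 at 11 of 11 probes, by a median of 0.35. On array 1 of Gja9_het the direction was the opposite, and sample 1 lay below sample 2 at 11 of 11 probes, with a median of -0.18 (-0.44 to -0.05). On array 1 of wildtype, 10 of 11 were higher in Cy5 (median 0.18), and on array 2 of Gja9_null 10 of 11 (median 0.10). Over the 6 spots of the repeated clone this difference had an SD of 0.125 on average, against 0.449 for the deviations between arrays given above.

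Over all 13443 probes the median difference between Cy5 and Cy3 lay between -0.01 and 0.04 on every array. Every sample averages 1 on the linear scale, so a median near 0 over all probes is in part set by that scaling. Over the 1311 probes with a mean signal in the range of the globin probes, the globin probes included, the median difference lay between -0.03 and 0.03. Of these 1311 probes, 0.61% exceeded the globin median on array 2 of wildtype, 1.68% on array 2 of Gja9_het, 4.42% on array 1 of Gja9_null, 9.31% on array 1 of wildtype and 28.2% on array 2 of Gja9_null, and 10.8% lay below it on array 1 of Gja9_het. Cy5 was the brighter dye for the globin probes on 5 of the 6 arrays, so dye and sample cannot be told apart on any single array. For wildtype sample 3 and Gja9_null sample 1, the Cy5 samples of 2 of these 5 arrays, the labelling text names Cy3, so the count of 5 rests on the label field. In the limma fit the dye term (Cy5 minus Cy3) was 0.28 ± 0.09 for Hba-a2 (adjusted p = 0.0440), 0.21 ± 0.06 for Hbb-b1 (adjusted p = 0.0485) and -0.04 ± 0.05 for Alas2 (adjusted p = 0.678). Both globins passed, as 13.9% of all features did, in a fit that assumes the same array correlation for all features. The within-array differences themselves ran from -0.19 to 0.55 for Hba-a2 and from -0.12 to 0.47 for Hbb-b1. The dye term rests on the label field as well. The joint pattern of the 11 probes was picked out after its values were seen and had no test of its own, and the spots of a clone are not independent readings.

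Other cell type lists also differed between the colours of an array. The median of the 4 oligodendrocyte and myelin markers was 0.32 and 0.04 on the wildtype arrays, 0.13 and -0.91 on the Gja9_null arrays and -0.41 and 0.04 on the Gja9_het arrays, with the direction of the globins on 5 of 6. The 2 choroid plexus markers also had the direction of the globins on 5 of 6 arrays, with a median of -0.23 on array 1 of Gja9_het. Leukocyte markers had a median above 0 on all 6 arrays (0.09 to 0.19), and neuron and astrocyte markers had one below 0 on all 6.

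Alas2 had smaller differences within the arrays. Its Cy5 sample differed from its Cy3 sample by -0.16 and -0.09 on the wildtype arrays, 0.14 and -0.07 on the Gja9_null arrays and -0.04 and 0.00 on the Gja9_het arrays. Over the 6 within-array differences, Hbb-b1 and Hba-a2 had r = 0.89, while Alas2 had r = -0.01 with Hbb-b1 and -0.02 with Hba-a2. Over the 12 samples, which share arrays in pairs, Hbb-b1 and Hba-a2 had r = 0.72, and Alas2 had r = -0.65 with Hbb-b1 and -0.29 with Hba-a2. These are descriptions over 6 arrays.

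**Figure D5:**
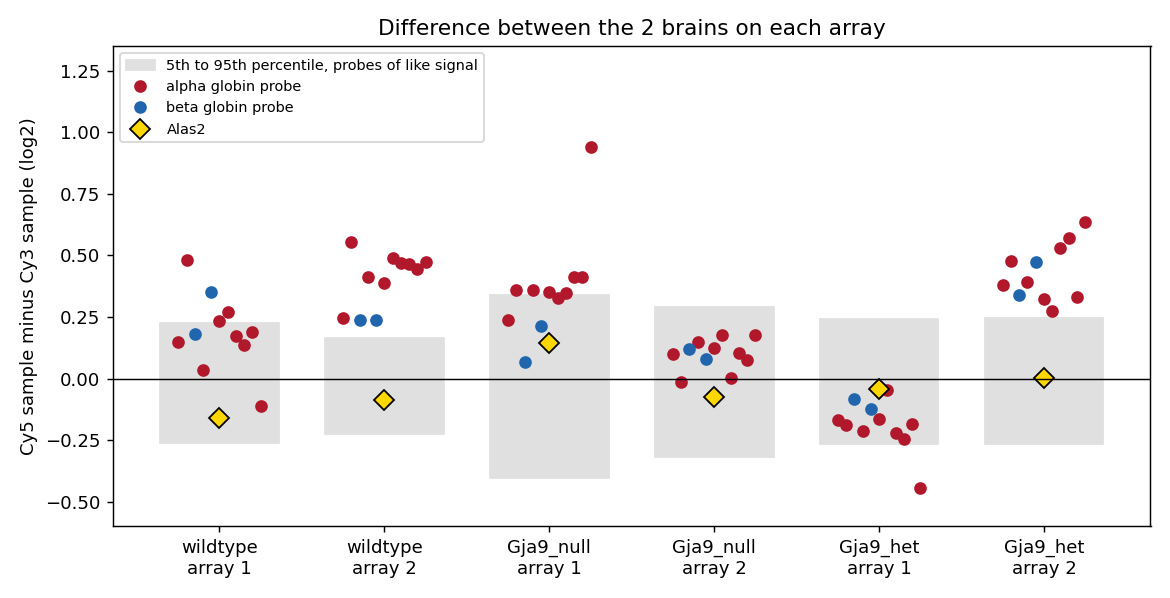
Difference between the Cy5 and the Cy3 sample (log2) on each of the 6 arrays for the 11 globin probes (red for alpha, blue for beta) and Alas2 (yellow diamonds), with grey bands from the 5th to the 95th percentile of the 1311 probes of like mean signal. The globin probes lie on the same side of 0 at 11 of 11 probes on 4 arrays and at 10 of 11 on the other two, and Alas2 stays between -0.16 and 0.14.

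The haem synthesis list, Alas2 included, had no gene that passed. Of 15 listed genes 13 were measured, and 0 passed in any comparison with limma, while 5, 0 and 3 had an unadjusted p under 0.05 for Gja9_null against wildtype, Gja9_het against wildtype and Gja9_null against Gja9_het, where 11.6%, 2.19% and 15% of all features did. Alas2 is itself counted among the 5 and among the 3. Between Gja9_null and wildtype the median of the 13 genes was -0.03, against -0.10 over all features. Alas1, which makes the same step outside red cells, differed by 0.28 ± 0.30 over 3 probes, and Alad, of the second step, by 0.26 ± 0.32. Of the later enzymes, Uros stood at -1.14 ± 0.49, Urod at 0.76 ± 0.35, Cpox at 0.26 ± 0.40 and Ppox at -0.03 ± 0.46. The mitochondrial glycine carrier Slc25a38 stood at 0.27, the mitochondrial iron carrier Slc25a37 at -0.43, and the mitochondrial membrane proteins Abcb10 and Tmem14c at -0.67 and -0.94, the porphyrin transporter Abcb6 at 0.14, and Clpx, a mitochondrial unfoldase that acts on the Alas enzymes, at -0.80 ± 0.27. None of these passed. After Alas2, the smallest limma adjusted p was 0.267, for Clpx, between Gja9_null and wildtype and 0.259, for Slc25a37, between Gja9_null and Gja9_het. With local centring, Gja9_null against wildtype gave -0.49 for Uros, 0.51 for Urod, 0.84 for Ppox, -0.27 for Tmem14c, -0.35 for Abcb10, -0.21 for Slc25a37 and -0.64 for Clpx.

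The wider erythroid, haem and iron lists, the genes above included, had no gene that passed. Over 64 measured genes of these 7 lists (121 listed), 0 passed in either direction in the 3 comparisons with limma. At an unadjusted p under 0.05 there were 9 for Gja9_null against wildtype, 1 of them higher, or 14.1% against 11.6% of all features. There was 1 for Gja9_het against wildtype (1.56% against 2.19%), and there were 15 for Gja9_null against Gja9_het, 6 of them higher (23.4% against 15%). In Gja9_null against wildtype, the red cell membrane and cytoskeleton list (7 of 19 measured) had a median of -0.03. Above 0 lay 3 of the 7 genes. The 2 of smallest p were Sptb, the erythroid spectrin, at 0.64 ± 0.42 and Add2, an adducin, at 0.55 ± 0.39. Next came Mpp1 at -0.51 ± 0.36. The red cell enzymes (8 of 14) had a median of 0.11, with 4 of the 8 above 0. Car2, a carbonic anhydrase, stood at 0.68 ± 0.39 and Nt5c3 at 0.53 ± 0.26, while Prdx2 stood at -0.40 ± 0.38. The erythroid regulators (12 of 20) had a median of -0.01, with 6 of the 12 above 0. Jak2, the kinase of the erythropoietin receptor, stood at -0.80 ± 0.30 and Stat5a at -0.78 ± 0.47, while Lmo2 stood at 0.44 ± 0.38.

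Among genes of iron, Slc11a2, which carries iron out of endosomes, stood at -1.73 ± 0.51 (limma adjusted p = 0.199) between Gja9_null and wildtype. Isca1, of iron-sulphur cluster assembly, stood at -1.02 ± 0.37. The 13 measured genes of this list had a median of -0.16, with 3 above 0. Flvcr1, a haem exporter, stood at -1.03 ± 0.40 and Pgrmc1, a haem-binding membrane protein, at 0.78 ± 0.44, in a list of 9 with a median of -0.10. After local centring, 0 of the 64 genes passed against wildtype in Gja9_null, where 0.589% of all features did, or in Gja9_het, where 0.0105% did. Between Gja9_null and Gja9_het 3 (Dmtn, Flvcr1 and Isca1) passed, where 1.41% of all features did, and with local centring and array means 0 features passed in that comparison, so these calls were lost. Slc11a2 stood at -0.95 and Pgrmc1 at 0.50 against wildtype after local centring.

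Markers of other cells of the blood and its vessels were read beside the 3 genes. The summed signal of 9 measured leukocyte markers (of 18) was 6.23 to 6.79 times the mean probe in wildtype, 4.45 to 6.60 in Gja9_null and 6.998 to 8.17 in Gja9_het. That of the platelet markers, of which 2 of 9 were measured, was 1.29 to 1.66, 0.83 to 1.47 and 1.77 to 2.24 in the same order. The 9 endothelial and pericyte markers (of 19) gave 5.31 to 7.46, 6.00 to 6.53 and 5.74 to 6.51. Such a sum grows with the number of genes in it, and 9 genes each at the mean probe would give 9. The median probe lies below the mean probe, so 9 genes at the median would give less. Within the leukocyte list, Cd79a stood at -1.47 ± 0.51 and Ms4a1, both of B cells, at -1.05 ± 0.37 between Gja9_null and wildtype. Of the 9 leukocyte markers, 2 lay above 0, with Coro1a at 0.57 ± 0.34. Ppbp and Treml1, of platelets, stood at -0.65 ± 0.36 and 0.11 ± 0.32, Tek and Slc2a1, of vessels, at -0.55 ± 0.30 and 0.49 ± 0.27, and Ttr and Aqp1, of the choroid plexus, at 0.50 ± 0.34 and -0.43 ± 0.80. None of the 35 measured markers of all 7 cell type lists, the neural lists included, passed in any comparison as reported. After local centring Ppbp passed between Gja9_null and Gja9_het, a call that was lost with array means, and Cd79a, Ms4a1 and Tek stood at -0.74, -0.37 and -0.29 against wildtype in Gja9_null. The part of these markers in the results on Alas2 and the globins was not tested.

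The genes most like Alas2 over the 12 samples mostly had probe numbers close to it. By Pearson correlation of log2 values they were Nek4 (0.991), AI463012 (0.989), Nipbl (0.989), Tmcc2 (0.988) and Il17rc (0.987), and over the 6 array means the correlations were 0.988 to 0.996. Nek4, AI463012, Tmcc2 and Il17rc have probe numbers 27844, 27814, 28011 and 28101, in the same stretch as 27975 of Alas2, while the 5 probes of Nipbl lie between 1373 and 25769. Il17rc was the gene among these 5 that passed in a comparison, at -2.53 between Gja9_null and Gja9_het (limma adjusted p = 0.0345). The nearest to Hbb-b1 were Ccndbp1 (0.959), Rfxap (0.956), Rpap3 (0.950), Arpc1b (0.947) and Rps6ka6 (0.946). Those nearest to Hba-a2 were Ccdc117 (0.896), Wdr5b (0.882), Cep97 (0.867), Cdc42ep2 (0.854) and Prkag1 (0.843). The correlations were ranked over 6427 genes, and the 12 samples share 6 arrays.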

How the data were processed

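Total RNA of 12 mouse brain samples (60 micrograms each) was labelled with Cy5 or Cy3 and hybridised on 6 spotted cDNA arrays, per the labels' protocols and the design text. The label field gave the dye, and for 2 samples the labelling text names the other dye. The values deposited by the authors are log2 signals, and on the linear scale each sample averages 1. For background, dye correction, probe filter and normalization, no step is stated in the labels.

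Of 28704 probes, 13443 had values in all samples. Probes of 1 gene were averaged and the others kept alone, which gave 9514 features. Symbols were updated by gene number from RefSeq for 10263 probes. Shared arrays were read from the values: the difference between samples 1 and 3 correlated with that between samples 2 and 4 at 0.919 to 0.940 in each genotype.

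Comparisons used limma 3.58.1 under R 4.3.3, a two-sided moderated test (lmFit, eBayes) on the 12 samples together; the model held genotype, dye and the array as a random block (consensus correlation 0.927) assumed equal for all features, and Benjamini-Hochberg adjustment over all features. An adjusted p under 0.05 was called. For local centring, the median deviation of the probes up to 50 numbers away was taken off each value.

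The members and gene lists were chosen with earlier results of these data known. Named genes were the members, measured globin and haem synthesis genes, 2 genes of smallest p per other list, of which the iron, haem use, red cell, regulator, leukocyte, platelet, vessel and choroid plexus lists are given in the text and the neural lists in the closing section, and the 5 genes most correlated with each member. Mpp1, Prdx2, Lmo2 and Coro1a were named after the results were seen, as genes of the other direction in their lists. Promoter sequences are from RefSeq (GRCm38.p6), and no build is given for the arrays. The labels do not give replicate numbers as pairs. Deviations of same-numbered samples correlated at 0.11 to 0.23 in the 4 pairs of wildtype and Gja9_het, all best with their own number. The own number was best in 0 of 4 pairs of wildtype and Gja9_null and in 3 of 4 of Gja9_null and Gja9_het. The correlations there ran from -0.09 to 0.07. Dye and array were not taken out of these deviations, so they cannot tell whether the numbers are pairs. Odd numbers are Cy5 and even numbers Cy3 by the label field. Alternatives covered the array block, dye, replicate number, normalization, samples, dim probes, probe averaging, spread model and weights. Plots were made with Python 3.11.15 and matplotlib 3.10.9.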

Additional observations from a re-analysis of the deposited data

How the results depend on the processing

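In the 9 comparisons of Alas2, Hbb-b1 and Hba-a2 under 28 alternatives each, no member passed as reported. Alas2 passed between Gja9_null and Gja9_het without the array block (-1.71), without the dye term (-1.71), with array weights (-1.68) and with the replicate block and the array as a random block (-1.71, limma adjusted p = 0.0453), and against wildtype without the array block (-1.45), which treats the colours of an array as independent. Over all alternatives its limma adjusted p ran from 0.0011 to 0.364 against Gja9_het and from 0.0034 to 0.675 against wildtype. Hbb-b1 passed between Gja9_null and Gja9_het without the array block (0.73). Hba-a2 between Gja9_het and wildtype (-0.01 as reported) was 0.019 with cyclic loess, 0.041 with quantile normalization and 0.18 with local centring, with or without array means. Between Gja9_null and Gja9_het Hba-a2 was -0.17 with local centring, with or without array means, and -0.020 without array 1 of Gja9_null, and against wildtype it was -0.030 without that array. Leaving out each sample in turn gave Hba-a2 between -0.14 and 0.13 for Gja9_het against wildtype, and Alas2 between -1.50 and -1.39 against wildtype and between -1.75 and -1.65 against Gja9_het. The replicate block changed no other call on these genes. The cause of these changes was not tested.

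The 31 calls between Gja9_null and wildtype became 2 with array means, 14 with array weights, 8 with cyclic loess, 7 without the dimmest 25%, 17 with every probe alone, 51 without array 1 of Gja9_null, 56 with local centring, 0 with local centring and array means, 1464 without the array block, 3 with only the 2 genotypes and 5 with quantile normalization, and between 13 and 25 when each sample was left out in turn. The 26 between Gja9_null and Gja9_het became 0 with array means, cyclic loess, every probe alone, median centring, quantile normalization or local centring and array means, 1 without the dimmest 25% or with only the 2 genotypes, 95 without array 1 of Gja9_null, 134 with local centring, 2119 without the array block, 64 without the dye term, 44 with the replicate block and 5 with trend and robust, and between 0 and 20 when each sample was left out in turn. The 0 between Gja9_het and wildtype became 1 with local centring and 70 without the array block.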

Other observations

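Outside the blood lists, the neural marker lists had 0 genes that passed between Gja9_null and wildtype with limma, and 3 of their 13 measured genes (Nefm, Slc1a3 and Fabp7) had an unadjusted p under 0.05, where 11.6% of all features did. Astrocyte markers (4 of 9 measured) had a median of 0.63, in which Fabp7, a fatty acid binding protein of radial glia, stood at 1.66 ± 0.67 and the glutamate transporter gene Slc1a3 at 0.90 ± 0.31. Between Gja9_het and wildtype Fabp7 stood at 1.75 ± 0.67 and Slc1a3 at -0.49 ± 0.31. Between Gja9_null and Gja9_het Fabp7 differed by -0.09 and Slc1a3 by 1.39. Between Gja9_null and wildtype, oligodendrocyte and myelin markers (4 of 10) had a median of -0.49, with Cnp at -0.69 ± 0.70 and Olig2 at -0.34 ± 0.33. Neuron markers (5 of 10) had one of -0.30, with Nefm, a neurofilament gene, at -1.74 ± 0.53 and Syt1, a synaptic vesicle protein, at -0.77 ± 0.58. With local centring the same comparison gave -0.83 for Nefm, -1.20 for Syt1, 1.91 for Fabp7, 0.57 for Slc1a3, -0.62 for Cnp and 0.15 for Olig2.

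Of the 2527 probes with values and no gene name, 13 were among the 20 features nearest to the globins within the arrays. The 20 features other than the globin probes whose Cy5 to Cy3 differences on the 6 arrays were nearest to the median of the 6 globin clones, by root mean square difference, included 13 probes with no gene, 1 with several genes and 6 genes, where 26.6% of all features have no gene. The nearest, a probe with no gene, departed from the globin median by 0.03 log2 units, and the 20th by 0.11. Hbb-b1 and Hba-a2, which help set that median, departed by 0.11 and 0.13, Alas2 by 0.33 and the median feature by 0.32. The 6 genes were Rpap3, Tyms, Phtf1, Grn, Arhgap28 and Mad2l2. This ranking was made after seeing the data, over 6 arrays, and always yields 20 features. How many would come as near by chance was not tested, and neither was what the unnamed clones hold.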
